A study of Homo sapiens with 12 samples.

Results

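The genes that carry glucose into the cell and break it down to lactate, together with the genes that cells switch on when oxygen is short, were followed in 12 polyA RNAseq libraries of colon cancer cells. The set held 32 genes, chosen by name from the 62426 genes of the count table, and each of the 32 had a row. Of these, 19 belonged to glycolysis and its control (2 glucose transporters, 14 enzymes of the pathway and 3 switch enzymes) and 13 were targets of hypoxia-inducible factor (HIF). HCT116 and SW480, both established human colon cancer cell lines, were each sequenced as parental cells, as cells labelled as overexpressing CD44s (CD44s-OE) and as cells labelled as overexpressing CD44v6 (CD44v6-OE), with 2 libraries in each of the 6 groups. CD44 is a cell surface glycoprotein, of which CD44s is the standard isoform and CD44v6 an isoform that includes the variable exon v6. The OE cells were stably transfected with expression plasmids and selected with Geneticin, and the headers of their count columns name them as pools. The labels call both plasmids pcDNA, whereas the study's list of reagents gives a pcDNA plasmid for CD44s and a pUC57 plasmid for CD44v6, so that vector and isoform cannot be told apart if the backbones differed. Total CD44 RNA, in which isoforms are not separated, was 539 to 540 CPM (counts scaled to library depth) in the parental libraries of HCT116, 516 to 571 CPM in those labelled CD44s-OE and 503 to 507 CPM in those labelled CD44v6-OE. In SW480 it was 161 to 187, 179 to 205 and 134 to 146 CPM, in the same order. The counts thus do not show the overexpression: against parental, CD44 had log2 fold changes of 0.01 ± 0.12 (CD44s) and -0.09 ± 0.12 (CD44v6) in HCT116 and 0.12 ± 0.16 and -0.34 ± 0.16 in SW480 and passed in none of these by edgeR. CD44s-OE and CD44v6-OE are therefore used below as the labels of the libraries. The study itself assayed its OE cells by RT-qPCR of each isoform, relative to constitutive CD44 exons, and by western blot. Total CD44 RNA measures neither isoform share nor protein. The controls were the untransfected parental cells, so that plasmid, selection and CD44 isoform cannot be told apart in a comparison with them. Nothing in the labels says that the 2 libraries of a group came from separate cultures, and the p-values below therefore measure the spread between these libraries, which may be technical.

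Glycolysis turns glucose into pyruvate in the cytosol, and lactate dehydrogenase then reduces pyruvate to lactate, which lets the pathway run without oxygen. HIF is a transcription factor made of an oxygen-sensitive alpha subunit (HIF-1alpha or HIF-2alpha, encoded by HIF1A and EPAS1) and the stable partner ARNT. With oxygen present, prolyl hydroxylases of the EGLN family mark the alpha subunit for destruction through VHL, and with oxygen short the factor accumulates, binds hypoxia response elements and raises transporters, glycolytic enzymes and genes for pH control, vessel growth, mitophagy and collagen maturation. Many tumour cells also run glycolysis with oxygen present. The abundance of HIF protein is set largely after transcription, and the RNA levels given here do not measure it.

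The core of a hypoxia response element reads ACGTG or GCGTG. Both were searched on both strands in the 250 bases before the start of each gene, in RefSeq promoters of the build GRCh38.p14. Of the 32 genes, 28 had an entry, and SLC2A3, VEGFA, BNIP3L and NDRG1 had none. ACGTG was found in 13 of the 28 windows (46.4%) and in 18.7% of all 27305 promoters of the same length, and GCGTG in 11 of 28 (39.3%) and in 31.9% of all. At least one of them was present in 12 of 18 glycolysis genes (66.7%), in 8 of 10 HIF targets (80%) and in 43.1% of all promoters. The palindrome CACGTG holds ACGTG on both strands and was counted on each. A match describes letters only, and these genes were chosen partly because they are known HIF targets. The windows below belong to some of the genes with an entry and a match on which the later comparisons turn, with capitals marking the cores. ADM, which fell in HCT116 CD44s-OE cells, had a GCGTG core at -101 to -97. Its window is not printed, nor are those of BNIP3 and CA12, which had matches and differed between the parental lines. CA9 (chr9:35673678-35673927, + strand), ANGPTL4 (chr19:8363905-8364154, + strand), P4HA1 (chr10:73096867-73097116, - strand) and ALDOC (chr17:28576896-28577145, - strand) were higher in HCT116 CD44v6-OE cells. HK2 (chr2:74833877-74834126, + strand) and GPI (chr19:34364742-34364991, + strand) were lower in HCT116 CD44s-OE cells, and ANKRD37 (chr4:185396591-185396840, + strand) differed between the isoforms in SW480.
CA9: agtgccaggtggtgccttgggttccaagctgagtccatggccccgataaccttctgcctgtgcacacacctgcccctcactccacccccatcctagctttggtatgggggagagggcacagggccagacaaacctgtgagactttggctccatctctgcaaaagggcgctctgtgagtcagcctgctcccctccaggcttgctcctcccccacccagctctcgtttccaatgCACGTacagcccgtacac
ANGPTL4: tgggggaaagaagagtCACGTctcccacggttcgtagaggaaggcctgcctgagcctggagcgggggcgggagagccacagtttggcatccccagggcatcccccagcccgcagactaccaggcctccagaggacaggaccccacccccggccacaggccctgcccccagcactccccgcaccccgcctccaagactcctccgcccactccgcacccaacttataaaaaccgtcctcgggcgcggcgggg
P4HA1: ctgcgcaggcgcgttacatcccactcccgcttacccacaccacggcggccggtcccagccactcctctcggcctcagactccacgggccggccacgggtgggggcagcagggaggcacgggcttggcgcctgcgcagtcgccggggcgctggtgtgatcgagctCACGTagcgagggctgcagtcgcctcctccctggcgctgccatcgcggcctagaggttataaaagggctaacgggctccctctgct
ALDOC: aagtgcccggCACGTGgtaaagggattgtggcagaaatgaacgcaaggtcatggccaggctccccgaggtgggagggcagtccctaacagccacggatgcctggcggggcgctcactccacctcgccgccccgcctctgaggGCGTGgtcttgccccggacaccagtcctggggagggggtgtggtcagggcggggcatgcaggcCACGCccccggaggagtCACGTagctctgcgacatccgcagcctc
HK2: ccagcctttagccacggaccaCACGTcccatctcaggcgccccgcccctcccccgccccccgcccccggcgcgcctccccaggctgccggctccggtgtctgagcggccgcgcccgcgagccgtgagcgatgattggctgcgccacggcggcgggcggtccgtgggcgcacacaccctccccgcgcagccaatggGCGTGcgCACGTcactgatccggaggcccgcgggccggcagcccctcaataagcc
GPI: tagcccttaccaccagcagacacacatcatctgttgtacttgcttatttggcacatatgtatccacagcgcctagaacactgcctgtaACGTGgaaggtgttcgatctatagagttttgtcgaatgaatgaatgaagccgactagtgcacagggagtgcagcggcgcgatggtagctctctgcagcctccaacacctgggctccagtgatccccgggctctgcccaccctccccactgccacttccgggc
ANKRD37: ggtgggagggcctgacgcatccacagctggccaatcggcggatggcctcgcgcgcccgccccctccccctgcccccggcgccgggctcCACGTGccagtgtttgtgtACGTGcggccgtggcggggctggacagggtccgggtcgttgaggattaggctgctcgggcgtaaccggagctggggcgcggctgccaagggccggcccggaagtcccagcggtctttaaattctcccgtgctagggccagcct

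Counted from the start of the gene, the core of CA9 lay at -18 to -14, that of P4HA1 at -86 to -82 and that of ANGPTL4 at -234 to -230. ALDOC carried a CACGTG from -240 to -235, a further ACGTG core at -28 to -24 and 2 GCGTG cores. ANKRD37 held a CACGTG and a further ACGTG, at -143 to -139. Cores were thus present both in genes that rose and in genes that fell: HK2 had 2 ACGTG cores and 1 GCGTG core, and GPI had 1 ACGTG core. TPI1 and PGAM1, which fell with them, had neither core in this window.

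Each library held between 43102156 and 52811889 counts, of which the 32 genes took 1.98% to 2.52%. Each read of a pair was counted, so that 3 read pairs, the limit that a count of 0 allows, are 6 counts, or 0.112 to 0.152 CPM by library. That limit covers counting error only. The colon epithelial markers (10 genes, of which CDH17 was at 0 counts in the parental libraries of both lines) summed to 6856 to 8469 CPM in HCT116 parental, 6045 to 6871 in HCT116 CD44s-OE and 6653 to 7483 in HCT116 CD44v6-OE libraries. In SW480 they summed to 17079 to 18924, 8184 to 10078 and 13726 to 15017 CPM, in the same order of groups, and 6 of the 10 fell and 1 rose in CD44s-OE. In HCT116 CD44s-OE, 2 of the 7 that were tested fell, CDH1 by 1.61 ± 0.23 and EPCAM by 1.14 ± 0.18 on the log2 scale. Of the fibroblast markers (7 genes), the collagen genes COL1A1 and COL3A1 rose in both HCT116 OE groups and PDGFRB fell in CD44s-OE, with sums of 13.7 to 19.2 CPM in parental and 31.7 to 56.4 in OE libraries. In SW480 the same sum was 2.12 to 5.24 CPM, with DCN at 0 counts in both parental libraries, and LUM rose with both isoforms. Leukocyte markers (6 genes, the pan-leukocyte gene PTPRC at 0 counts in both parental libraries of either line) summed to at most 5.53 CPM and endothelial markers (4 genes with a row) to at most 2.14 CPM in any library, and 2 genes of the leukocyte list, CD14 and LYZ (log2 2.11 ± 0.56), rose in SW480 CD44s-OE. The part of these marker changes in the results below was not tested.

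To compare genes, counts were scaled by TMM (a normalization that evens out composition between libraries) and divided by the exon length of the gene, giving RPKM, reads per kilobase of exon scaled to library depth. The span of levels was wide. GAPDH, which oxidizes glyceraldehyde-3-phosphate, stood at 3340 to 4826 RPKM in every library and alone made up 61.5% to 68.0% of the summed RPKM of the 19 glycolysis genes. Below it came TPI1 (389 to 665 RPKM), which interconverts the triose phosphates, then ENO1 (390 to 581 RPKM), the common enolase, and PKM (361 to 550 RPKM), the pyruvate kinase of most tissues. These 3 genes overlapped in level across libraries. LDHA, the main lactate dehydrogenase subunit, was at 99.7 to 210 RPKM, below SLC2A1 in every SW480 library. The low end of the glycolysis genes held PDK1, a kinase that inhibits pyruvate dehydrogenase, with 0.43 to 1.24 RPKM, and in HCT116 also the transporter SLC2A3, with 0.42 to 1.09 RPKM. The HIF targets were far lower, and their summed level was 47.2 to 99.0 RPKM against 5392 to 7468 RPKM for the glycolysis genes. Because reads with several placements were not counted, the levels of GAPDH, PGAM1, BNIP3 and other genes with many named pseudogenes (65, 13 and 44 in the annotation) are uncertain. ALDOA shared 43.3% of its exon bases with another gene on the same strand, so its 8.44 to 24.3 RPKM are an undercount and its isozyme share is uncertain.

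The other genes of the set passed no test within a line and are given by their ranges over the 6 libraries of each line. PGK1, the first ATP-making step of glycolysis, was at 70.2 to 98.8 RPKM in HCT116 and 99.5 to 146 in SW480, and PFKL, the liver-type phosphofructokinase, at 23.5 to 28.6 and 18.8 to 25.2 RPKM. ENO2, the neuronal enolase, was at 10.2 to 15.3 RPKM in HCT116 and 16.7 to 24.7 in SW480. PFKFB3 and PFKFB4 set the level of fructose-2,6-bisphosphate, an activator of phosphofructokinase. PFKFB3 was at 5.40 to 10.1 RPKM in HCT116 and 3.34 to 6.19 in SW480, and PFKFB4 at 4.72 to 5.90 and 3.88 to 7.78 RPKM. P4HA2, a relative of P4HA1, was at 2.59 to 3.72 RPKM in HCT116 and 3.89 to 7.29 in SW480. KDM3A, a histone demethylase, was at 1.95 to 3.09 and 2.46 to 3.08 RPKM.

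On the hg19 build to which the reads were aligned, HK2 spans chr2:75061254-75120486, GPI chr19:34850385-34893318, ALDOC chr17:26900133-26903966 and P4HA1 chr10:74766975-74856732. CA9 spans chr9:35673915-35681156, ANGPTL4 chr19:8428173-8439254, VEGFA chr6:43737921-43754224 and ANKRD37 chr4:186317175-186321782. Counts were summed over the exons of each gene, so that coding sequence and UTRs are not separated.

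The first comparison set the HCT116 libraries labelled CD44s-OE against the parental ones. A gene was said to have changed (risen or fallen) when the adjusted p of edgeR's quasi-likelihood test was under 0.1, and was called when its log2 fold change was also over 1.5 in size, the thresholds of the study's methods. Of the 32 genes, 9 changed (28.1%), against 14.2% of the 17335 genes tested. The 4 that rose compare with 8.45% of all genes and the 5 that fell with 5.71%. Only NDRG1 was called, where 3.09% of all genes were. The enzymes of the glycolytic pathway leaned downward: 12 of 14 had a negative log2 fold change (4 of them fell), with a median of -0.29, while the median over all tested genes was 0.04. The HIF targets leaned the other way, with 11 of 13 positive (2 of them rose), 1 fallen and a median of 0.26. Between the 2 parental libraries themselves 12 of 13 HIF targets were higher in library 1, by a median of 0.27, as large as this lean.

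NDRG1, a stress-responsive protein that is among the most strongly hypoxia-induced genes, showed the largest change. It stood at 9.00 and 8.26 RPKM in the 2 HCT116 parental libraries and at 50.3 and 25.2 RPKM in the 2 CD44s-OE libraries. The groups were far apart, although the CD44s-OE libraries themselves differed by 1.00 on the log2 scale. Its log2 fold change was 2.13 ± 0.27 (SE), a 4.38-fold increase, with an adjusted p of 0.00498 in edgeR. It was the single change in this comparison that held whichever library was left out, with log2 fold changes from 1.54 to 2.53.

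SLC2A3, which encodes the high-affinity glucose transporter GLUT3, was barely present in HCT116, at 0.47 and 0.42 RPKM in parental and 0.74 and 1.09 RPKM in CD44s-OE libraries. Both CD44s-OE libraries lay above both parental ones, and the gene rose 2.06-fold (log2 1.04 ± 0.27, adjusted p = 0.0472 in edgeR). The main transporter of the line, SLC2A1 (GLUT1), gave 26.7 and 41.7 RPKM in parental and 46.7 and 36.4 in CD44s-OE libraries. Those ranges overlapped, and SLC2A1 did not pass the test (log2 0.28 ± 0.20, adjusted p = 0.42 in edgeR). ALDOC, an aldolase isozyme known from brain, rose from 25.3 and 25.6 RPKM to 48.6 and 36.8 RPKM, or 1.68-fold (log2 0.75 ± 0.15, adjusted p = 0.0216 in edgeR). BNIP3L, a receptor for mitophagy, went from 4.88 and 3.52 to 6.20 and 7.11 RPKM, a log2 fold change of 0.67 ± 0.19 (adjusted p = 0.0647 in edgeR).

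The enzymes that fell sit at the entry and in the middle of the pathway. HK2, the inducible hexokinase that traps glucose as glucose-6-phosphate, was at 6.88 and 7.70 RPKM in parental and at 4.50 and 3.53 RPKM in CD44s-OE libraries. With no overlap between the groups, HK2 fell by 0.86 ± 0.16 on the log2 scale (adjusted p = 0.0177 in edgeR). GPI, which turns glucose-6-phosphate into fructose-6-phosphate, was at 71.1 and 74.0 RPKM in parental and at 48.5 and 48.5 RPKM in CD44s-OE libraries. Both groups were tight here, and GPI fell by 0.58 ± 0.11 on the log2 scale (adjusted p = 0.0182 in edgeR). TPI1 went from 563 and 583 to 439 and 389 RPKM and fell by 0.47 ± 0.12 on the log2 scale (adjusted p = 0.0446 in edgeR). PGAM1, which moves the phosphate on phosphoglycerate, went from 137 and 151 to 114 and 97.6 RPKM and fell by 0.45 ± 0.13 on the log2 scale (adjusted p = 0.0627 in edgeR). Among HIF targets the vasodilator peptide gene ADM went the same way, from 13.5 and 11.2 to 6.14 and 9.45 RPKM, and fell by 0.66 ± 0.21 on the log2 scale (adjusted p = 0.09025 in edgeR).

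Not every step of the pathway followed. PKM had a positive log2 fold change of 0.35 ± 0.12, with 387 and 434 RPKM in parental and 550 and 492 in CD44s-OE libraries, and missed the test (adjusted p = 0.115 in edgeR). GAPDH and LDHA had log2 fold changes of -0.35 ± 0.13 and -0.35 ± 0.14 and missed it too. VEGFA, which drives vessel growth, BNIP3 and EGLN3 had log2 fold changes between 0.02 and 0.04. The count of changed genes fell with either parental or either CD44v6-OE library left out and rose with either CD44s-OE library left out. It moved in the same directions over all genes tested. Each of these fits left 1 library in a group, so their counts are not given.

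The HCT116 libraries labelled CD44v6-OE were then set against the same parental libraries, and 4 of the 5 genes that changed were HIF targets. Of the 32 genes 5 changed (15.6%), against 1.53% of all tested genes, and all 5 rose, against 1.44% of all genes that rose. None of the 32 fell in edgeR or in DESeq2 (0 in each), against 0.0981% of all genes in edgeR and 71 of 17335 in DESeq2. SLC2A1 was the one gene of the 32 with a negative log2 fold change and an unadjusted p under 0.05 in edgeR (-0.48 ± 0.20). CA9 and ANGPTL4 were called, where 0.779% of all genes were. Of the 13 HIF targets 12 had a positive log2 fold change, with a median of 0.41 against 0.00 over all genes. The median difference of these targets between the 2 parental libraries was 0.27. The 14 pathway enzymes had a median of -0.08, and 11 of them were negative, with values from -0.19 to 0.81.

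CA9, a carbonic anhydrase of the cell surface that helps hypoxic cells keep their pH, was scarce in every HCT116 library. Parental libraries gave 26 and 6 counts, CD44s-OE libraries 36 and 43, and CD44v6-OE libraries 110 and 104, and 1 parental library was thus at the counting limit. The CD44v6-OE libraries were the highest of the line, with a log2 fold change against parental of 2.71 ± 0.55 (adjusted p = 0.0629 in edgeR). The value was 4.08 without the first parental library and 2.03 without the second. ANGPTL4, a secreted inhibitor of lipoprotein lipase, stood at 4.80 and 2.77 RPKM in parental and at 12.3 and 10.7 RPKM in CD44v6-OE libraries. It rose 3.04-fold (log2 1.60 ± 0.32, adjusted p = 0.0597 in edgeR), and the CD44s-OE libraries, at 8.94 and 4.82 RPKM, lay between the other groups. P4HA1, the catalytic subunit of collagen prolyl 4-hydroxylase, went from 5.81 and 4.67 RPKM in parental to 9.75 and 10.7 RPKM in CD44v6-OE libraries, 1.96-fold (log2 0.97 ± 0.20, adjusted p = 0.0623 in edgeR).

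NDRG1 and ALDOC rose here as they did with CD44s, against the same parental libraries. NDRG1 was at 21.6 and 20.3 RPKM in the CD44v6-OE libraries, a log2 fold change of 1.28 ± 0.27 (adjusted p = 0.0857 in edgeR). ALDOC was at 44.4 and 44.9 RPKM, a log2 fold change of 0.81 ± 0.15 (adjusted p = 0.0479 in edgeR). HK2, GPI and TPI1, which fell with CD44s, had log2 fold changes of -0.07 ± 0.16, -0.16 ± 0.11 and -0.06 ± 0.12 with CD44v6. ALDOC, NDRG1, P4HA1 and ANGPTL4 were each lost in 4 of 6 fits with a library left out, and CA9 in 3. The count of changed genes fell without a CD44v6-OE or parental library and rose without a CD44s-OE library. It moved in the same directions over all genes tested. With all 6 libraries, only ALDOC passed at an adjusted p under 0.05.

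**Figure D1:**
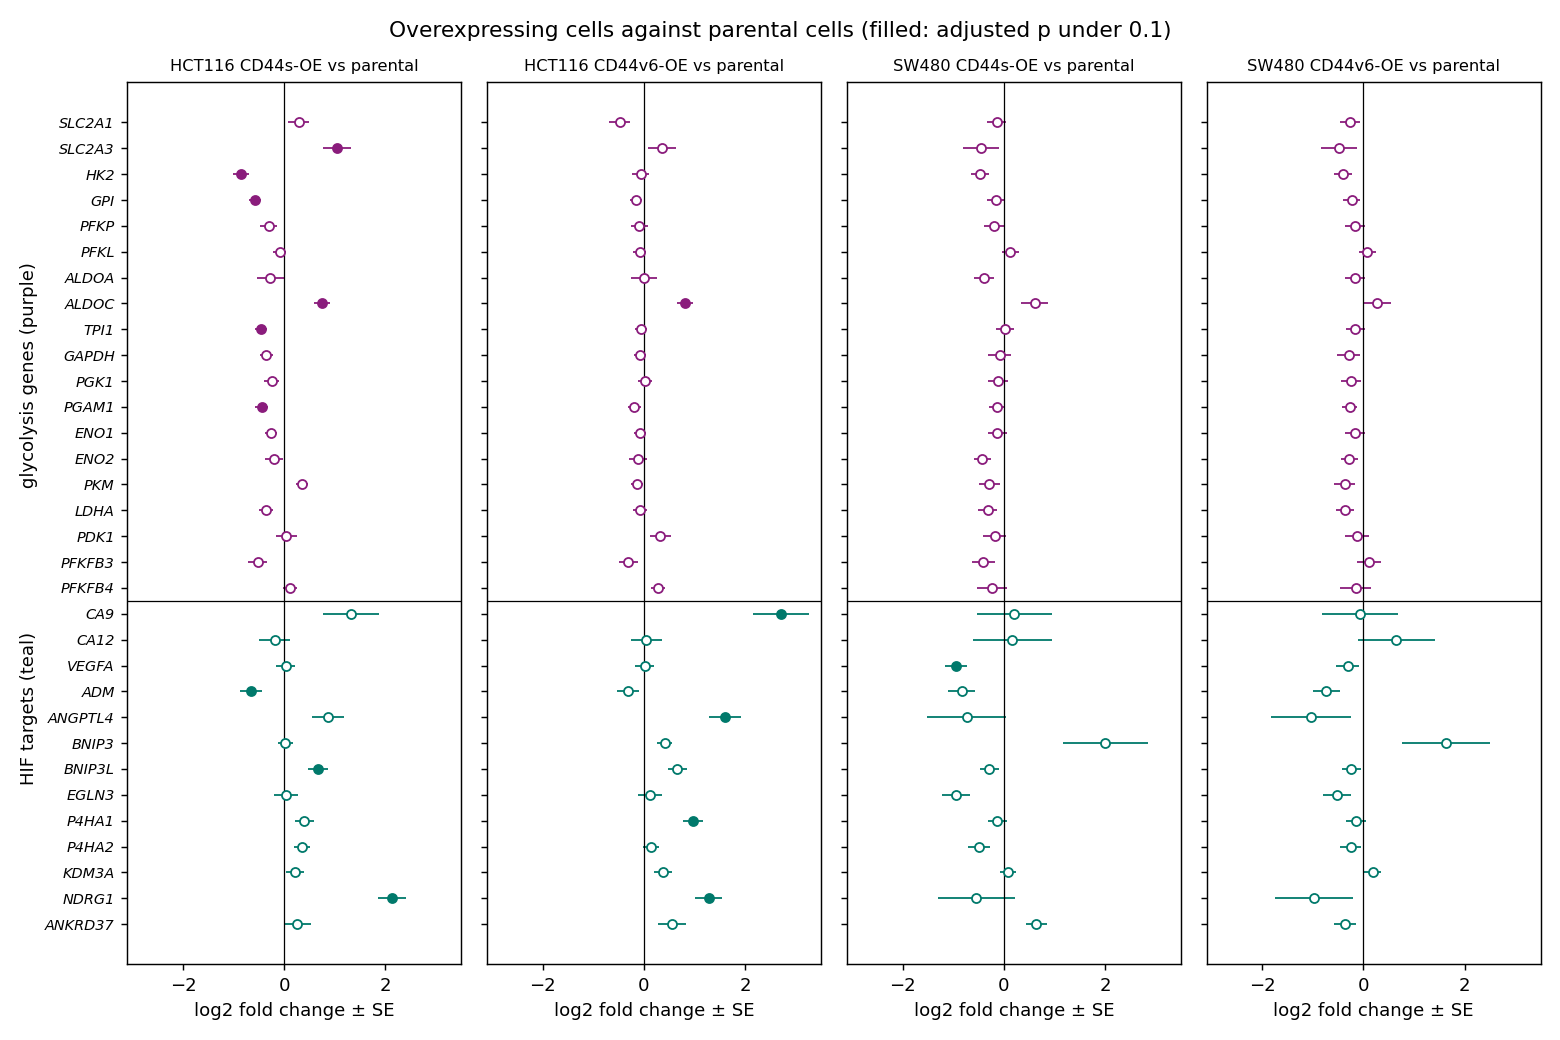
Log2 fold change of each gene in OE against parental libraries, with its standard error, in the 4 comparisons. Purple marks glycolysis genes and teal HIF targets, and filled points passed an adjusted p of 0.1. Filled points number 9, 5, 1 and 0 from left to right.

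The isoforms were then set against each other within HCT116. HK2 was the one gene of the 32 that differed (3.13%), against 0.813% of all genes. Its level was 7.04 and 6.85 RPKM in CD44v6-OE libraries, close to parental, and the log2 fold change of CD44s-OE over CD44v6-OE was -0.79 ± 0.16 (adjusted p = 0.0957 in edgeR). This call was lost without either CD44v6-OE library and without either parental library. In all, 25 of 32 genes had a negative log2 fold change, with a median of -0.23, while the median over all genes was 0.01. SLC2A1 (0.77 ± 0.20, adjusted p = 0.192 in edgeR) and NDRG1 (0.85 ± 0.26, adjusted p = 0.285 in edgeR) pointed to higher levels with CD44s and did not pass. The count of differing genes rose without either CD44s-OE library, over all genes tested as among the 32.

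In SW480 little of this was detected. With CD44s, 1 of 32 genes changed (3.13%), against 4.72% of the 17539 genes tested. VEGFA stood at 3.33 and 2.00 RPKM in parental and at 1.40 and 1.41 RPKM in CD44s-OE libraries. The CD44s-OE libraries were nearly equal and the parental ones were not, and VEGFA fell by 0.94 ± 0.22 on the log2 scale (adjusted p = 0.0506 in edgeR). Without the first parental library the log2 fold change of VEGFA was -0.53 and was lost, and it was also lost on leaving out either CD44s-OE or either CD44v6-OE library. The other secreted factors, ADM (-0.83 ± 0.27, adjusted p = 0.144 in edgeR) and ANGPTL4 (-0.73 ± 0.78), were lower without passing, and ANGPTL4 had between 6 and 28 counts in each SW480 library. EGLN3, the oxygen sensor that is itself a HIF target, was at 2.50 and 1.79 RPKM in parental and 1.04 and 1.23 RPKM in CD44s-OE libraries, with a log2 fold change of -0.94 ± 0.27 (adjusted p = 0.108 in edgeR). The upward lean of the HIF targets in HCT116 was not seen here. VEGFA, ADM, ANGPTL4, BNIP3L, EGLN3, P4HA2 and NDRG1 were under the mean of the SW480 parental libraries (log2 scale) in both CD44s-OE libraries. CA9, BNIP3 and ANKRD37 were over it in both, and CA12, P4HA1 and KDM3A were split.

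With CD44v6, none of the 32 genes passed in SW480, against 0.57% of all genes. At an unadjusted p under 0.05 there were 2. DESeq2 also gave 0 of the 32, while 285 of 17539 genes rose and 49 fell. The log2 fold changes of the glycolysis genes ran from -0.48 to 0.28, with 16 of 19 negative and a median of -0.23, while the median over all genes was -0.01. Among HIF targets, CA9, CA12, BNIP3 and KDM3A were over the parental mean (log2 scale) in both CD44v6-OE libraries. The other HIF targets were under it in both. Between the isoforms, 1 gene differed (3.13%), against 2.12% of all genes. ANKRD37, a small ankyrin repeat protein known as a HIF-1 target, was at 7.81 and 11.4 RPKM with CD44s and at 4.93 and 4.58 RPKM with CD44v6. The parental libraries, at 5.73 and 6.33 RPKM, lay between, and CD44s-OE exceeded CD44v6-OE 2.03-fold (log2 1.02 ± 0.22, adjusted p = 0.048 in edgeR). That call was lost without the second CD44s-OE library (log2 0.72) or without either CD44v6-OE library.

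NDRG1 in SW480 showed how much 1 parental library can weigh. Its 2 parental libraries stood at 52.0 and 10.2 RPKM, on either side of the CD44s-OE libraries at 20.6 and 22.7 RPKM and of the CD44v6-OE libraries at 13.4 and 18.6 RPKM. With both, NDRG1 had log2 fold changes of -0.54 ± 0.77 with CD44s and -0.98 ± 0.77 with CD44v6, neither near the threshold. Against the second parental library alone the CD44s value of NDRG1 was 1.06, and against the first alone it was -1.28. For CD44v6 these were 0.62 and -1.72. A lone parental library holds no spread between parental libraries, which differed here by 2.35 on the log2 scale, so no p-value is given. The number of the 32 genes changed with CD44s rose without either parental library and fell without either CD44s-OE or either CD44v6-OE library. It moved in the same directions over all genes tested.

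**Figure D2:**
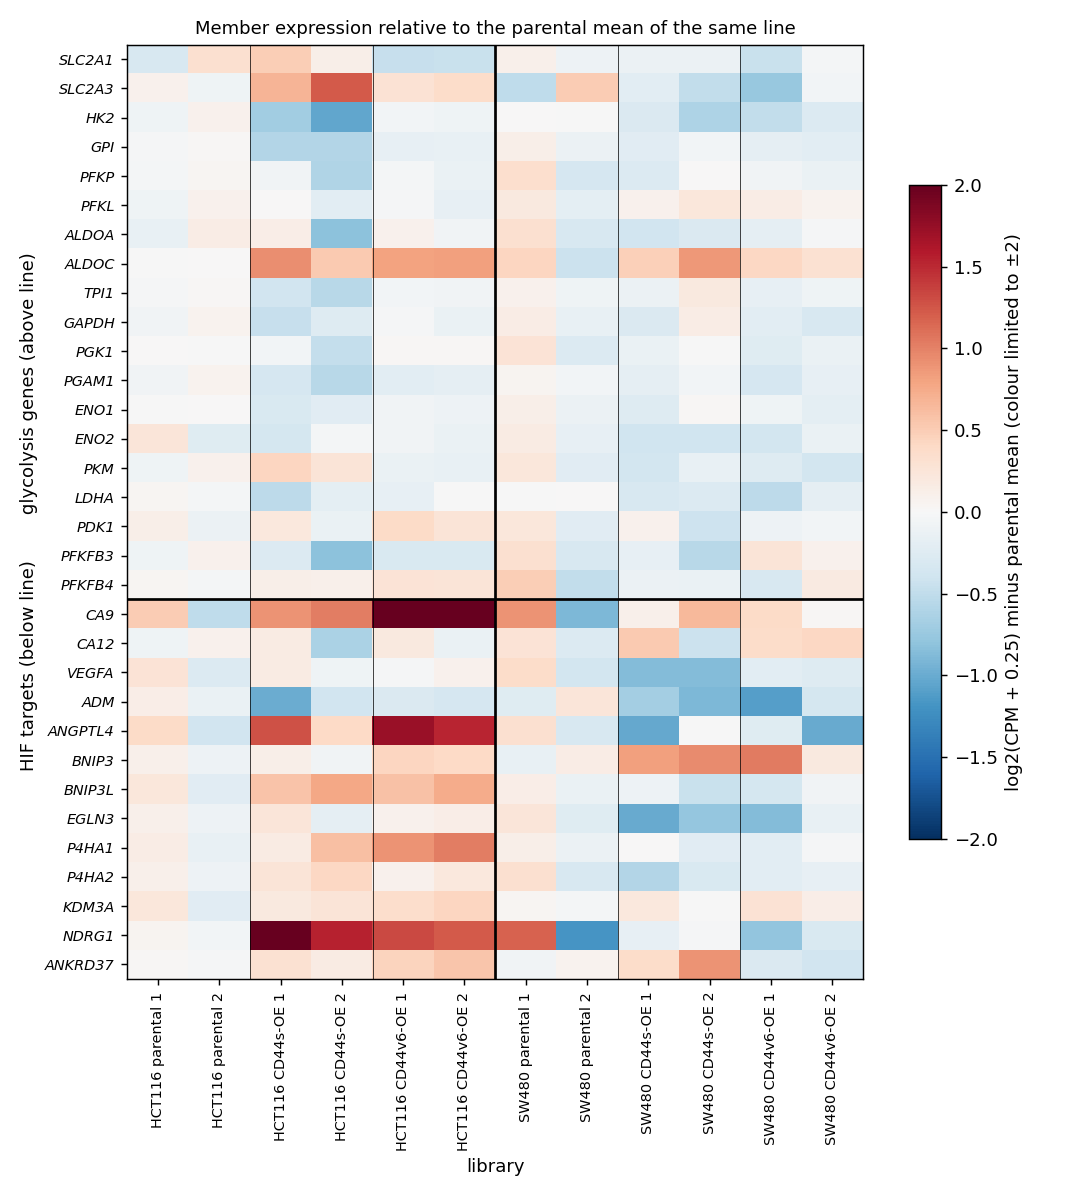
Each of the 32 genes in each library, as the log2 of CPM plus 0.25 minus the mean of the 2 parental libraries of the same line. Red is higher and blue lower, with the colour limited to 2 on the log2 scale, glycolysis genes above the horizontal line and HIF targets below it. CA9 and ANGPTL4 are reddest in the HCT116 CD44v6-OE libraries and NDRG1 in HCT116 CD44s-OE library 1, while the 2 SW480 parental libraries take opposite colours for NDRG1 and CA9.

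The spread between libraries of a group was not the same for both kinds of gene. In HCT116 parental cells 12 of 13 HIF targets were higher in library 1 than in library 2, with a median log2 difference of 0.27, while 6 of 19 glycolysis genes were, with a median of -0.06. Over all 13805 genes with a mean of at least 1 CPM the share higher in library 1 was 47.3% and the median -0.01. In SW480 parental cells 10 of 13 HIF targets (median 0.47) and 17 of 19 glycolysis genes (median 0.34) were higher in library 1, against 52.1% of all genes and a median of 0.02. NDRG1 differed by 2.35 and CA9 by 1.79 on the log2 scale between these 2 libraries, whereas SLC2A3 differed by -1.02. The 2 CD44v6-OE libraries of HCT116 were the closest pair, with no gene of the 32 over 0.32 apart on the log2 scale. The cause of these differences was not tested.

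Many more of the 32 genes differed between the parental lines than between OE and parental libraries of a line. Between SW480 and HCT116 parental cells 20 of 32 genes changed (62.5%), which was close to the 60.9% of all 19567 genes tested. The 10 that were higher in SW480 compare with 31.7% of all genes and the 10 that were lower with 29.2%. Of the 32, 9 were called, against 29.0% of all genes. The comparison rests on 2 parental libraries of each line.

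The glucose transporters gave the widest gap among the glycolysis genes. SLC2A1 was at 26.7 and 41.7 RPKM in HCT116 and at 255 and 221 RPKM in SW480 parental libraries, 6.96-fold higher in SW480 (log2 2.80 ± 0.22, adjusted p = 1.29e-07 in edgeR). SLC2A3 was at 0.47 and 0.42 RPKM in HCT116 and at 64.1 and 130 RPKM in SW480, a log2 fold change of 7.76 ± 0.43 (adjusted p = 6.57e-08 in edgeR). The fitted fold was 217.5, and the 2 lines were far apart in every library. Among enzymes ALDOC was 4.22-fold lower in SW480 (log2 -2.08 ± 0.24) and PFKP, the platelet-type phosphofructokinase, was 2.75-fold lower (log2 -1.46 ± 0.21), while GAPDH, TPI1 and GPI had log2 fold changes of -0.07 ± 0.18, 0.03 ± 0.15 and 0.20 ± 0.14 and did not pass.

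The HIF targets split in both directions. BNIP3, a mitophagy receptor of the outer mitochondrial membrane, had 2114 and 1764 counts in HCT116 parental libraries and 2 and 6 in SW480 parental libraries, the latter at or under the counting limit. The ratio of read pairs, scaled to library depth, was 418 with an exact 95% interval of 163 to 1535, which covers counting error only. Counts of the 44 named BNIP3 pseudogenes reached, at their highest, 2000% of the BNIP3 count of a library. As reads with several placements were dropped, the size of the ratio is uncertain. BNIP3 stayed between 6 and 20 counts in the 4 SW480 OE libraries. Its relative BNIP3L was 2.26-fold higher in SW480 (log2 1.18 ± 0.20). CA12, a second cell surface carbonic anhydrase, had 234 and 258 counts in HCT116 parental libraries and 14 and 8 in SW480 (log2 -4.23 ± 0.54), and ANGPTL4 had 627 and 351 against 28 and 18 (log2 -4.16 ± 0.55). ANKRD37 (log2 2.79 ± 0.24) and EGLN3 (log2 1.58 ± 0.27) were higher in SW480. NDRG1 was higher as well (log2 1.85 ± 0.69, adjusted p = 0.0577 in edgeR). Without the first SW480 parental library its log2 fold change was 0.24 and the call was lost. The other 8 of these 9 called genes kept an adjusted p under 0.1 with each of the 12 libraries left out in turn, but EGLN3 fell under the fold threshold, to 1.47 without the second HCT116 parental library and 1.32 without the first SW480 parental library.

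Whether the response to CD44 differed between the lines was tested directly, as the difference of the log2 fold changes (SW480 minus HCT116). For CD44s against parental none of the 32 genes passed in edgeR, against 3.92% of all genes, with 10 at an unadjusted p under 0.05. DESeq2 gave 6 of the 32 (1 positive and 5 negative), beside 708 positive and 915 negative among 15014 genes. NDRG1 had the largest difference, -2.65 ± 0.96 (95% interval -4.54 to -0.76, adjusted p = 0.237 in edgeR), followed by BNIP3, which is at the counting limit in SW480. For CD44v6 against parental none passed in edgeR, against 0.409% of all genes, with 5 at an unadjusted p under 0.05. DESeq2 gave 1, beside 203 positive and 154 negative among 16152 genes. Here P4HA1 gave -1.09 ± 0.28 (adjusted p = 0.174 in edgeR), ANGPTL4 -2.59 ± 0.83 and CA9 -2.74 ± 1.03. For CD44s against CD44v6 none passed in edgeR either, against 0.491% of all genes, with 5 at an unadjusted p under 0.05. DESeq2 gave 1, beside 76 positive and 271 negative among 15394 genes. None of the unadjusted counts in these comparisons was set beside that of all genes, so they cannot be judged alone. ANKRD37 came nearest, at 1.31 ± 0.32 (adjusted p = 0.1385 in edgeR). By edgeR the changes seen in HCT116 were therefore not shown to differ from the values in SW480, and the intervals are wide. For CD44s the outcome depended on the tool, as DESeq2 passed 6 of the 32.

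Isozymes of the same step were compared by their share of the summed RPKM of the family. Among aldolases ALDOC made up 65.2% and 60.6% in the parental libraries of HCT116, against 74.8% and 81.3% with CD44s and 73.6% and 75.9% with CD44v6. In SW480 its share was 24.4% and 21.5% in parental libraries, 35.1% and 40.1% with CD44s and 31.1% and 27.3% with CD44v6, so that in each line every OE library lay above both parental ones. The level of ALDOC itself did not follow throughout, at 7.75 and 7.18 RPKM in SW480 CD44v6-OE against 7.84 and 4.27 RPKM in SW480 parental libraries. These shares are too high by an unknown amount, because ALDOA is undercounted. Among hexokinases HK2 held 25.4% and 28.3% in HCT116 parental and 28.5% and 29.2% in CD44v6-OE libraries but 17.4% and 17.9% in CD44s-OE libraries, the remainder being mostly HK1. In SW480 its share reached 22.3% in a parental library, and the 3 groups overlapped. SLC2A3 held 1.69% and 0.98% of the glucose transporters in HCT116 parental and 20.1% and 36.9% in SW480 parental libraries. P4HA1 made up 64.6% and 63.2% of the prolyl 4-hydroxylase subunits in HCT116 parental and 75.3% and 75.7% in CD44v6-OE libraries. LDHA made up 91.3% to 97.2% of the lactate dehydrogenase subunits throughout. BNIP3 held 60.7% and 64.7% of its pair in HCT116 parental libraries and at most 1.09% in any SW480 library, with its level uncertain because of its pseudogenes.

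Other genes of the same pathways were read from lists that left out the 32. Of 29 further glycolysis and pyruvate genes, 21 were tested in HCT116, and with CD44s 1 of them (4.76%, beside 14.2% of all genes), PFKM, the muscle-type phosphofructokinase, changed, falling by 0.45 ± 0.15 on the log2 scale (adjusted p = 0.09515 in edgeR), a call that was lost in 5 of 6 fits with a library left out. With CD44v6 none of the 21 changed in edgeR, beside 1.53% of all genes, and 1 had an unadjusted p under 0.05. In SW480, 19 were tested, and with CD44s 2 changed (10.5%, beside 4.72% of all genes). PDK4, a pyruvate dehydrogenase kinase induced by fasting, rose (log2 1.68 ± 0.39, adjusted p = 0.0445 in edgeR), while PFKFB2, which makes and degrades fructose-2,6-bisphosphate, fell by 0.73 ± 0.20 on the log2 scale (adjusted p = 0.0832 in edgeR). PDK4 had 36 and 68 counts in parental and 201 and 161 in CD44s-OE libraries. Both calls were lost without either CD44s-OE library, and that of PFKFB2 also without either CD44v6-OE library. Of 7 gluconeogenesis enzymes, 3 were tested in HCT116 and 4 in SW480, and none changed in edgeR in the 6 comparisons within a line, with 0 to 2 at an unadjusted p under 0.05.

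Of 40 further HIF targets, 35 were tested in HCT116. With CD44s 7 rose and 3 fell, or 28.6% of those tested, beside 14.2% of all genes. The chemokine receptor CXCR4 had 17 and 12 counts in parental and 58 and 63 in CD44s-OE libraries (log2 2.07 ± 0.45), and SPAG4 (log2 1.49 ± 0.41) and the lysyl oxidase relative LOXL2 (log2 1.31 ± 0.23) rose as well. STC2, a stanniocalcin hormone, fell by 0.86 ± 0.27, the transferrin receptor TFRC by 0.68 ± 0.17 and the growth factor TGFA by 0.54 ± 0.16, each on the log2 scale. TFRC was lost without either parental library, CXCR4 and LOXL2 without the second parental library, and STC2 in 5, TGFA in 4 and SPAG4 in 3 of 6 fits with a library left out. None of the 35 changed with CD44v6 at an adjusted p under 0.1 in edgeR, beside 1.53% of all genes. At an unadjusted p under 0.05 there were 11, a count that was not set beside that of all genes and cannot be judged alone. In SW480, where 38 were tested, 2 changed with CD44s (5.26%, beside 4.72% of all genes) and 1 with CD44v6 (2.63%, beside 0.57%). STC2 fell by 0.72 ± 0.17 on the log2 scale with CD44s, and PLOD2, a lysyl hydroxylase of collagen, rose with both isoforms. PLOD2 had 0 counts in both SW480 parental libraries, 20 and 12 with CD44s and 46 and 28 with CD44v6. Set against the limit of 6 counts per parental library, it was at least 2.42-fold and 5.96-fold higher. The CD44s calls of STC2 and PLOD2 were lost without either CD44s-OE library, and that of STC2 also without either CD44v6-OE library. The CD44v6 call of PLOD2 was lost in 3 of 6 fits with a library left out.

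Of the 14 genes of the HIF machinery (13 of them tested in SW480) EPAS1, which encodes HIF-2alpha, was the only one to change against parental cells, and it fell with CD44s in both lines. That is 7.14% of the genes tested in HCT116 and 7.69% in SW480, beside 14.2% and 4.72% of all genes. EPAS1 went from 8.23 and 8.70 to 5.62 and 3.01 RPKM in HCT116 (log2 -0.97 ± 0.24, adjusted p = 0.0445 in edgeR). In SW480, where it was far more abundant, EPAS1 went from 123 and 82.7 to 62.4 and 47.2 RPKM (log2 -0.93 ± 0.22, adjusted p = 0.0491 in edgeR). With CD44v6 EPAS1 was at 7.70 and 7.01 RPKM in HCT116 and at 72.2 and 82.2 RPKM in SW480 and did not pass. The CD44s call of EPAS1 was lost without either parental library in HCT116, and on leaving out any one of the 4 OE libraries in SW480. HIF1A was at 14.9 and 19.6 RPKM in HCT116 parental and at 19.9 and 30.3 RPKM in CD44s-OE libraries and passed in no comparison. CITED2, which competes with HIF for its coactivators, was higher with CD44s than with CD44v6 in SW480 (log2 0.94 ± 0.17, adjusted p = 0.022 in edgeR), a call lost in 4 of 6 fits with a library left out.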

How the data were processed

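PolyA RNA of 12 libraries was sequenced as paired ends. Per the study's methods and the submitters' processing notes, the authors cleaned reads with SOAPnuke, aligned them to hg19 with STAR 2.7.9a and GENCODE annotation, marked duplicates with Sambamba, and made the deposited counts per gene with featureCounts (Subread 2.0.3) as reversely stranded, counting each read of a pair and dropping multi-mapping reads. The deposited log2-scale values are the authors' variance-stabilized counts (DESeq2 1.30.1), and they served here only to pair gene IDs with symbols and to check columns. Counts ranged from 43102156 to 52811889 per library, and 3 read pairs (6 counts) were taken as the limit for a count of 0. From the counts, edgeR 4.0.16 (R 4.3.3) was run with TMM scaling, filterByExpr and robust quasi-likelihood tests, on the 6 libraries of a line or, between lines, on all 12, with Benjamini-Hochberg adjustment over all genes tested. Intervals are 1.96 SE on each side. Levels are CPM and RPKM from the exon length in the count table, and differences between libraries used log2 of CPM plus 0.25. The tests were tried on simulated data. Genes described with library values were those changed within a line or called between parental lines, with up to 4 changed genes per direction of each other list, and HIF1A was added after its values were seen. One gene of another list that this rule names is not reported here. The 32 genes and the lists were chosen with earlier results of these data known. Alternatives were DESeq2 1.42.0, RLE size factors, total counts, no filter, a replicate block, halved counts, an adjusted p of 0.05, only the groups compared and each library left out, where a lone library was assumed to vary like the other groups.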

Additional observations from a re-analysis of the deposited data

Results flagged for a closer look

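Of the 39 other HIF targets tested, 3 differed between the lines in the CD44s-OE response (7.69%, beside 3.92% of all genes) and 1 in the CD44v6-OE response (2.56%, beside 0.409% of all genes), by edgeR's quasi-likelihood test of the difference (SW480 minus HCT116). For CXCR4 the CD44s-OE response differed by -2.35 ± 0.42 on the log2 scale (adjusted p = 0.01274). Its counts were 17 and 12 in parental and 58 and 63 in CD44s-OE libraries of HCT116, while SW480 gave 35.6 and 58.3 CPM for parental and 41.3 and 36.1 CPM for CD44s-OE libraries. For LOXL2 the difference was -1.60 ± 0.32 (adjusted p = 0.02075), with 34.99 and 22.9 CPM in parental and 84.5 and 59.1 CPM in CD44s-OE libraries of HCT116, and 38.2 and 30.0 against 28.3 and 27.6 CPM in SW480. The LOXL2 difference was lost without the second HCT116 parental library or the second SW480 CD44s-OE library. For PLOD2 the test gave an adjusted p of 0.01973 with CD44s and 0.01416 with CD44v6. PLOD2 had 0 counts in both SW480 parental libraries and 503 to 858 counts in HCT116 libraries, so the fitted size of its difference is not given.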

How the results depend on the processing

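Counts of the 32 genes changed depended on the setting. With no filter on low counts they were 15 for CD44s-OE against parental in HCT116 (1908 of all 36008 genes rose, 1210 fell). For CD44s-OE against CD44v6-OE in HCT116 they were 5 (370 rose, 269 fell). In SW480, with 34675 genes, they were 5 for CD44s-OE against parental (808 rose, 816 fell). CD44v6-OE against parental gave 1 there (456 rose, 93 fell), and CD44s-OE against CD44v6-OE gave 2 (232 rose, 636 fell). The same differences between lines gave 7, 3 and 1. Over all 40400 genes these were 594, 267 and 87 positive and 855, 197 and 348 negative. With DESeq2 they were 5 for CD44s-OE against CD44v6-OE in HCT116 (293 of 15990 genes rose, 223 fell). For CD44s-OE against parental in SW480 they were 4 (638 of 17198 genes rose, 730 fell). Between lines they were 6, 1 and 1, with the values over all genes given above. With only the groups compared, CD44s-OE against parental gave 4 in HCT116 (698 of 16683 genes rose, 358 fell). In SW480 it gave 0 (293 of 16973 rose, 236 fell). CD44s-OE against CD44v6-OE gave 0 in HCT116 (24 of 16940 rose, 24 fell) and 2 in SW480 (381 of 17140 rose, 821 fell). At an adjusted p under 0.05 in edgeR, CD44v6-OE against parental gave 1 in HCT116 (142 of all 17335 genes). CD44s-OE against CD44v6-OE gave 0 in HCT116 (79 of 17335), and CD44s-OE against parental gave 0 in SW480 (488 of 17539). Halved counts gave 1 for the CD44s-OE difference between lines (335 of 17461 genes positive, 446 negative). The cause was not tested.

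With 1 library left out the counts ranged from 1 to 16, 0 to 7 and 0 to 12 in HCT116 (CD44s-OE against parental, CD44v6-OE against parental, CD44s-OE against CD44v6-OE), and 0 to 10, 0 to 3 and 0 to 2 in SW480. They ranged from 17 to 23 between parental lines and from 0 to 6, 0 to 2 and 0 to 1 for the differences between lines. In SW480, NDRG1 reversed without parental library 1, to 1.06 with CD44s and 0.62 with CD44v6, and was -1.28 and -1.72 without parental library 2, alternatives chosen after seeing the data.

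The replicate block gave 11, 5 and 2 changed genes in HCT116, 1, 0 and 1 in SW480, 17 between parental lines and 0 for each difference between lines. Deviations of same-numbered libraries correlated between 0.015 and 0.0483 in HCT116 and between -0.085 and 0.121 in SW480, so the numbers were not taken to pair the libraries.

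With 2 libraries per group, small changes of scarce genes such as CA9 and CA12 were limited by counting as well as by the spread between libraries.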
